A study of Mus musculus with 10 samples.

Results

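The cytochrome P450 genes outside the CYP1 family were followed in adipose stem and precursor cells (ASPCs) treated with the aryl hydrocarbon receptor (AHR) ligand FICZ. Genes were chosen by symbol, as Cyp followed by a family number, a subfamily letter and a gene number, without Cyp1a1, Cyp1a2, Cyp1b1 and pseudogenes, and with at least 1 count in any library. Of 25229 rows in the count table, 97 matched this rule, 13 of these had no count in any library and 84 were taken as members. Of the 84, 50 passed edgeR's filter on low counts and were tested, and 34 did not. The libraries came from CD45-CD31-Pdgfra+ cells sorted from perigonadal white adipose tissue (gWAT) of WT mice and grown to confluence without passaging. There were 5 libraries of cells given the vehicle DMSO and 5 of cells given 100 nM FICZ, all lysed 6 hr later, and both groups share every other step. The age, sex and strain of the mice for these cultures are not stated in the sources used here, nor whether a library is 1 animal or a pool.

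P450 enzymes are haem proteins that insert an oxygen atom into their substrate with electrons passed on by redox partners. Families 2 and 3, with parts of family 4, handle drugs and fatty acids and are best known from hepatocytes, where several are among the most abundant mRNAs. Other members make or break down bile acids, steroid hormones, vitamin D and retinoic acid, some of them in mesenchymal cells. AHR itself is best known as the activator of the CYP1 genes that the rule leaves out.

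Totals ranged from 38328611 to 50210111 counts per library. Cyp1a1, the standard AHR target, had 26.8 ± 12.8 CPM (counts scaled to a library of 1000000, with TMM; mean ± SD, n = 5) with DMSO and 255 ± 92.4 with FICZ (log2 difference 3.25, adjusted p = 0.0189, edgeR quasi-likelihood test), so the treatment was visible in the libraries carrying its label. The sorted cell type was also visible, since Pdgfra had 45683 to 69213 counts in every library. Every library also held hepatocyte transcripts. Alb, which encodes the plasma protein albumin made by hepatocytes, had 73243, 35479, 32988, 75521 and 232987 counts in DMSO replicates 1 to 5 and 46306, 43502, 40318, 29599 and 40768 in FICZ replicates 1 to 5. DMSO replicate 5 stood apart with the highest value, the groups overlapped, and the means were 1982 ± 1660 and 929.7 ± 152.8 CPM (p = 0.183, exact two-sided permutation test). All 17 of the other hepatocyte markers followed Alb by the measure described next, among them Trf (slope 0.52), Apoa1 (0.97) and Serpina3k (0.99). Of the macrophage markers 5 of 7 did so as well, including Clec4f, a marker of liver Kupffer cells, against 1 of 6 stromal and 0 of 4 endothelial markers. The stromal marker was Lum, with a slope of 0.52 like that of Trf. The most abundant macrophage markers, Csf1r and Cd68, did not follow Alb (slopes 0.02 and 0.23). Of other markers tested, 1 of 3 for gut epithelium (Fabp2), 1 of 3 for mature adipocytes (Cidec), 0 of 2 for steroid-producing cells and 0 of 1 for kidney tubule followed Alb. In bulk libraries, fewer cells of a type and less RNA per cell cannot be told apart.

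To tell P450 genes that move with Alb from those that do not, the slope of each gene on Alb was estimated within groups, as the difference in log2 CPM per log2 unit of Alb CPM. A gene whose reads come with Alb in a fixed ratio has a slope of 1. A gene was said to follow Alb at an adjusted p of 0.05 or less (edgeR) with a slope of at least 0.5, and not to follow where the slope plus 2 standard errors stayed under 0.5. By this measure 37 of the 50 tested P450 genes followed Alb, 8 did not and 5 were undecided. Over all genes tested, 714 of 14250 followed Alb, or 5.01%. The 37 had a median slope of 0.977 (range 0.519 to 1.18), and 32 lay within 2 standard errors of 1. The rule admits no slope under 0.5, so these values are in part set by that choice. Without DMSO replicate 5, 28 of the 37 still followed Alb, where 2.75% of all genes did, and the median slope of the 37 was 0.979. The 9 that no longer passed without this library were Cyp3a13, Cyp4b1, Cyp7b1, Cyp2c38, Cyp4a32, Cyp2d40, Cyp4v3, Cyp4a12b and Cyp2d22.

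**Figure D1:**
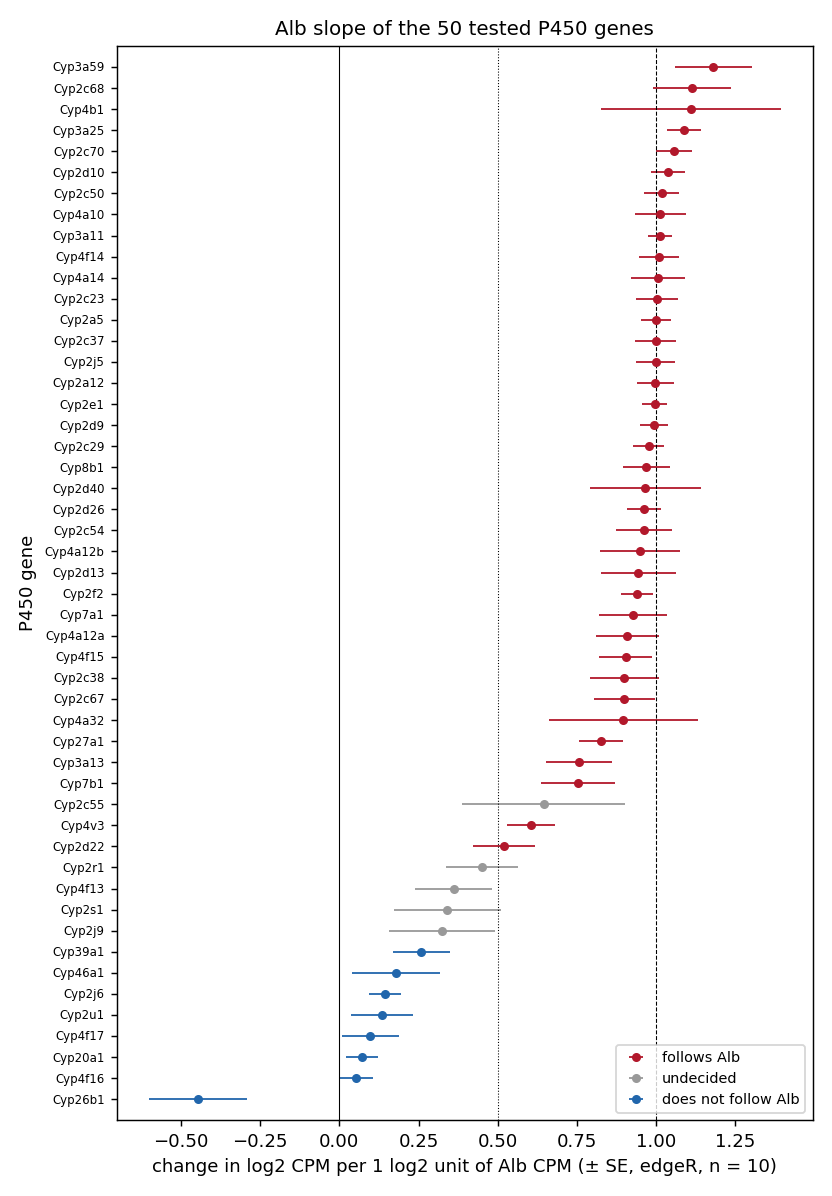
Slope of each of the 50 tested P450 genes on Alb (x axis, log2 CPM per log2 unit of Alb CPM, point with SE, n = 10 libraries, group in the model), with genes on the y axis and classes by colour. Dotted and dashed lines mark slopes of 0.5 and 1. Most genes gather near 1, the 8 that do not follow Alb lie between -0.447 and 0.258, and the genes with intermediate slopes lie between these sets.

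Some subfamilies fell into 1 class and others were split. Among Cyp2c genes 9 followed Alb and Cyp2c55 was undecided, and Alb was also followed by all 6 tested Cyp2d, all 4 Cyp3a, all 5 Cyp4a and both Cyp2a genes. The Cyp2j and Cyp4f subfamilies held all classes. Cyp2j5 followed Alb, Cyp2j6 did not and Cyp2j9 was undecided, although all 3 lie in a cluster on chromosome 4. On chromosome 17, Cyp4f14 and Cyp4f15 followed Alb, Cyp4f16 and Cyp4f17 did not and Cyp4f13 was undecided. Paralogs of these clusters share sequence, and 14 of 36 followers with a gene model had over 20% of their 50-base transcript words in common with other genes, against 0 of 8 genes that did not follow Alb. The closest pair was Cyp4a12a and Cyp4a12b, which shared 48.9% and 49.4% of their words, so counts within such pairs are uncertain.

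The sequence upstream of the start site was described for the same classes, without a test. RefSeq start sites (GRCm38.p6) were found for 27 of the 37 followers and 5 of the 8 others, and the 250 bases before each start were searched. A TATAAA box between 45 and 16 bases before the start, on the gene's strand, stood in 6 of the 31 windows of followers (19.4%), in 0 of 5 windows of genes that did not follow Alb and in 2.14% of all 32851 windows. Windows of followers held a median of 1 CG pair and 45.6% G+C, against 7 CG pairs and 60.4% for the others and 6 CG pairs and 52.4% over all windows. GCGTG, the core to which AHR binds with its partner ARNT, was searched on both strands, as GCGTG and CACGC. It occurred in 3 of 31 windows of followers (9.68%), in 3 of 5 of the others (Cyp20a1, Cyp4f16 and Cyp46a1) and in 28.2% of all windows. These are counts of letters in a short window and no binding was measured.

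Of the members, 4 are shown to let these features be seen: Cyp8b1 and Cyp27a1 of the bile acid pathway, which followed Alb, and Cyp20a1 and Cyp46a1, which did not. The stretches run 5′ to 3′ and end at the base before the RefSeq start, and capitals mark TATAAA in Cyp8b1 and GCGTG or CACGC in Cyp20a1 and Cyp46a1. They lie at chr9:121916306-121916555 on the minus strand, and at chr1:74713285-74713534, chr1:60343050-60343299 and chr12:108334066-108334315 on the plus strand (GRCm38.p6).
Cyp8b1: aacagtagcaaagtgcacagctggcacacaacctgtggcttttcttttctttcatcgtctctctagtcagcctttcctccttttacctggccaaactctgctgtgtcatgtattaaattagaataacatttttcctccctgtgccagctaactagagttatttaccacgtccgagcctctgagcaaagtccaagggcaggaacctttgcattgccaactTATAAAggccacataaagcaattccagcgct
Cyp27a1: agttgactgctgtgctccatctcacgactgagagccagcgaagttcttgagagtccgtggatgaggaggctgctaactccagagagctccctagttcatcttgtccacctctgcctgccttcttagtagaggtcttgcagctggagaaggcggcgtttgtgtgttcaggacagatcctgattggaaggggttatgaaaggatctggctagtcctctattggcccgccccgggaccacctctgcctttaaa
Cyp20a1: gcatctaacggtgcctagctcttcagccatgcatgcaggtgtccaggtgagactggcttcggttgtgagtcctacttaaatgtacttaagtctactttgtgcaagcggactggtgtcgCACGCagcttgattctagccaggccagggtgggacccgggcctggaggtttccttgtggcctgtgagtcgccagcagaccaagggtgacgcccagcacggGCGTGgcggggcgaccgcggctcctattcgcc
Cyp46a1: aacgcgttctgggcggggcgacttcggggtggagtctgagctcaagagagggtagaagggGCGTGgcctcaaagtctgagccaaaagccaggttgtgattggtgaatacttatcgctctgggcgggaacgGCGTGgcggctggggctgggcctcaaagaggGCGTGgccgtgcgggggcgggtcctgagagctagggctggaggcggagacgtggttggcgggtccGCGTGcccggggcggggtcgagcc
Cyp8b1 held 4 CG pairs, its TATAAA box and no GCGTG, and Cyp27a1 held 7 CG pairs with neither. Cyp20a1 held 15 CG pairs and 2 copies of the GCGTG core, and Cyp46a1 held 23 CG pairs and 4 copies.

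Among P450 genes listed under drug and xenobiotic metabolism, 25 passed the filter and 23 of these followed Alb. A gene on this list, such as Cyp2c70, may have other substrates. Cyp2e1 (chr7:140763739-140774987, mm10), which oxidises ethanol and other small molecules, was the most abundant member. Its counts were 8763, 4036, 3989, 9056 and 27019 in DMSO replicates 1 to 5 and 5306, 5236, 4866, 3552 and 4728 in FICZ replicates 1 to 5. DMSO replicate 5 was high, as for Alb, and the groups overlapped. For every 1000 Alb counts, each library had between 113.8 and 120.9 Cyp2e1 counts, and the slope was 1.00 (SE 0.04). Cyp3a11, the major mouse CYP3A enzyme of drug metabolism, had 5091, 2414, 2209, 5285 and 16118 counts with DMSO and 3102, 2833, 2626, 1985 and 2688 with FICZ. Its ratio was as narrow, at 65.12 to 69.98 counts per 1000 Alb counts, with a slope of 1.01 (SE 0.04). The other 21 followers of this group were Cyp2d9, Cyp2f2, Cyp2c29, Cyp2d26, Cyp2a5, Cyp2c50, Cyp3a25, Cyp2d10, Cyp2a12, Cyp2c70, Cyp2c23, Cyp2c37, Cyp2d13, Cyp2c67, Cyp2c68, Cyp2d40, Cyp2d22, Cyp3a13, Cyp2c54, Cyp2c38 and Cyp3a59. Per kilobase of exon, mean levels of followers ran from 0.239 to 79.5 CPM, with Cyp2e1 at the top.

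Among P450 genes listed under bile acid and sterol metabolism, a list without Cyp2c70, 6 of 6 passed the filter and 4 followed Alb. Cyp7a1, the rate-limiting enzyme of bile acid synthesis, had 243, 154, 83, 247 and 667 counts in the DMSO libraries and 155, 157, 108, 73 and 126 in the FICZ libraries, with a slope of 0.93 (SE 0.11). Cyp8b1, the sterol 12-alpha-hydroxylase, had 427, 197, 158, 431 and 1169 counts with DMSO and 244, 256, 206, 196 and 207 with FICZ, and its slope was 0.97 (SE 0.07). Both of these classical hepatocyte enzymes were highest in DMSO replicate 5, but so were 47 of the 50 tested members in CPM, followers of Alb or not. Cyp27a1, the mitochondrial sterol 27-hydroxylase that many tissues express, had a slope of 0.83 (SE 0.07), and a straight line of its CPM on Alb CPM left 19.9% of its mean level at an Alb level of 0. Cyp39a1, which hydroxylates 24-hydroxycholesterol, did not follow Alb (slope 0.26, SE 0.09), with 515 to 1194 counts per library. Cyp46a1, the cholesterol 24-hydroxylase best known from neurons, had 49 to 94 counts and a slope of 0.18 (SE 0.14).

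Cyp27a1 was 1 of 5 genes that followed Alb with a slope more than 2 standard errors below 1. Cyp7b1, the oxysterol 7-alpha-hydroxylase (chr3:18071950-18243338), had 425, 312, 285, 619 and 1401 counts with DMSO and 333, 335, 249, 336 and 513 with FICZ. Its slope was 0.75 (SE 0.12), and 27.8% of its mean level was left at an Alb level of 0. Cyp4v3 (chr8:45304944-45333216), the mouse counterpart of the fatty acid hydroxylase CYP4V2, had 971, 899, 742, 1338 and 2912 counts with DMSO and 918, 911, 874, 935 and 1097 with FICZ. The FICZ libraries were thus close to each other and to the 3 lowest DMSO libraries, the slope was 0.61 (SE 0.07) and 45.2% was left at an Alb level of 0. Cyp2d22 had a slope of 0.52 (SE 0.10) with 55.6% left, and Cyp3a13 a slope of 0.76 (SE 0.10) with 26.1% left. Of the 37 followers, 29 had under 10% left, some of them with values below 0, such as -12.6% for Cyp2c70. The line left out the group and was extended below the lowest Alb level, 681.8 CPM, with DMSO replicate 5 far above the other libraries. The classes were chosen by slope on Alb in these same libraries. A small remainder in followers, or a large one in the others, is in part set by that choice. The calls of Cyp7b1 and Cyp2d22 were lost with the replicate number as a block, at slopes of 0.50 (SE 0.08) and 0.41 (SE 0.07), since these fell under 0.5. The call of Cyp2d40 was also lost there, at 0.74 (SE 0.23, adjusted p = 0.0558, edgeR), as were those of Cyp4b1 and Cyp4a32. Without DMSO replicate 5, Cyp7b1 had a slope of 0.64 (SE 0.21), Cyp4v3 of 0.44 (SE 0.12), Cyp2d22 of 0.40 (SE 0.17), Cyp2d40 of 0.89 (SE 0.33) and Cyp4a12b of 0.95 (SE 0.23), none with an adjusted p of 0.05 or less in edgeR.

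**Figure D2:**
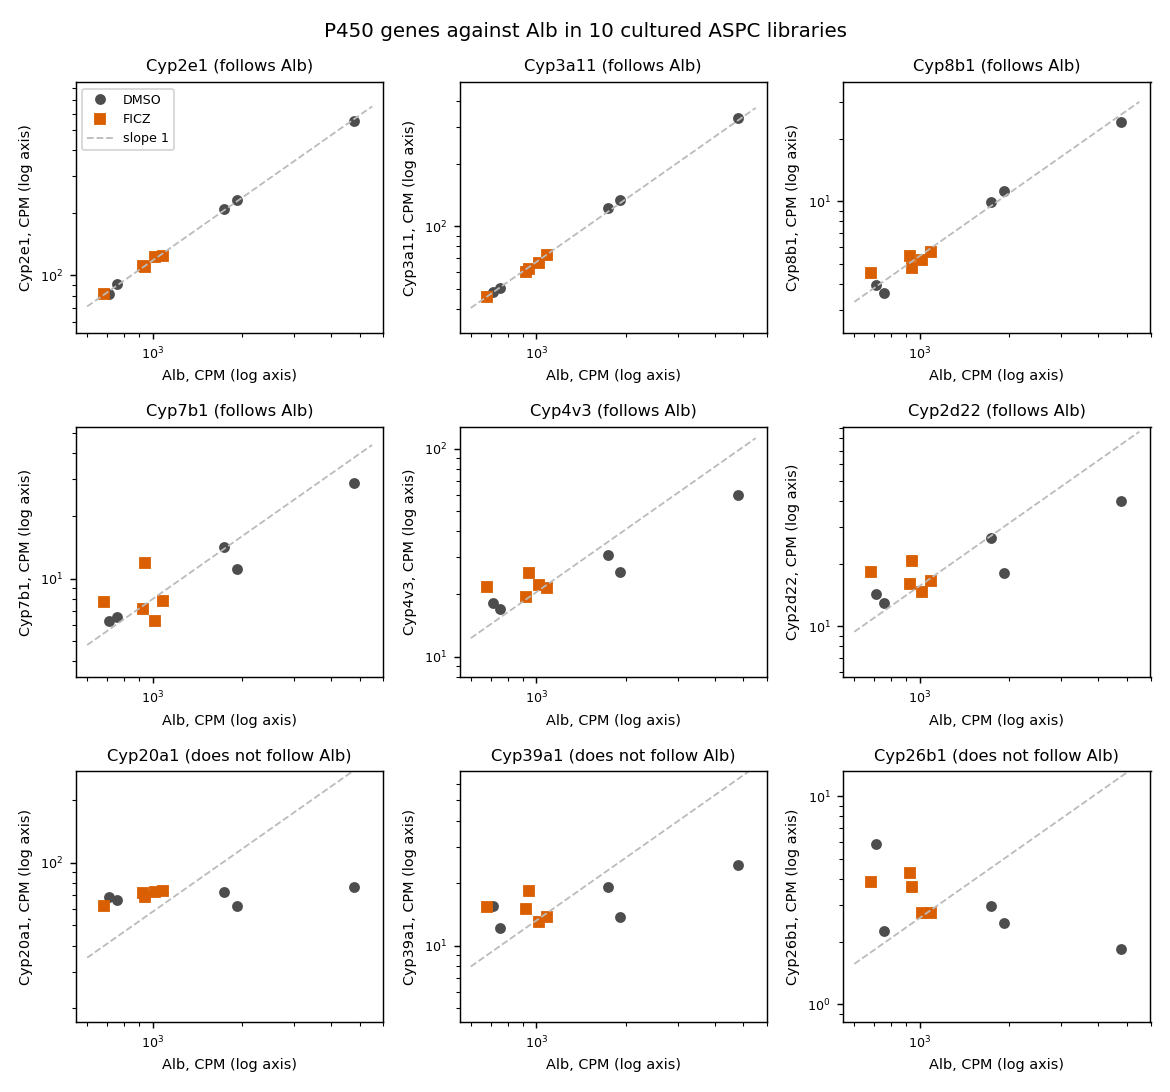
Level of 9 P450 genes (y axes, CPM, log scale) against Alb (x axes, CPM, log scale) in 10 libraries, circles for DMSO and squares for FICZ. Each y axis spans the same fold, and the dashed line has a slope of 1. Cyp2e1, Cyp3a11 and Cyp8b1 lie along the line, Cyp7b1, Cyp4v3 and Cyp2d22 are flatter, Cyp39a1 is flatter still with its highest value in DMSO replicate 5, and Cyp20a1 runs from 61.94 to 76.67 CPM over Alb values from 681.8 to 4782 CPM.

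Among P450 genes of fatty acid and eicosanoid metabolism, 16 passed the filter and 10 followed Alb. The followers included the omega-hydroxylases Cyp4a10 and Cyp4a14, classical targets of PPAR-alpha in liver, and Cyp4a12a and Cyp4a12b, with slopes of 0.91 to 1.01, as well as Cyp4f14 (1.01, SE 0.06) and the arachidonic acid epoxygenase Cyp2j5 (1.00, SE 0.06). Cyp2j6, of the same subfamily as Cyp2j5 (chr4:96516138-96553661), did not follow Alb. Its counts were 1052, 1320, 1182, 1366 and 1777 with DMSO and 1260, 1324, 1117, 1300 and 1364 with FICZ. They varied little next to Alb, the slope was 0.14 (SE 0.05), and 90.5% of its mean level was left at an Alb level of 0. The long-chain fatty acid hydroxylase Cyp2u1 (78 to 140 counts), Cyp4f16 (731 to 1025) and Cyp4f17 (309 to 532) had slopes of 0.14, 0.05 and 0.10. Cyp2j9 and Cyp4f13 were undecided, at 0.32 (SE 0.17) and 0.36 (SE 0.12).

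Cyp20a1 (chr1:60343323-60388060), an orphan P450 without an established substrate, was the most abundant of the 8 genes that did not follow Alb, also per kilobase of exon, at 30.4 CPM. It had 2372, 3417, 2893, 3160 and 3735 counts with DMSO and 3133, 3394, 2871, 2689 and 2962 with FICZ. The groups overlapped throughout, the slope was 0.07 (SE 0.05) and 96% of its mean level was left at an Alb level of 0. The retinoic acid hydroxylase Cyp26b1 (chr6:84571414-84593908) had 94, 292, 98, 128 and 90 counts with DMSO and 117, 202, 109, 167 and 158 with FICZ. DMSO replicate 2 was highest and DMSO replicate 5, with the most Alb, had the lowest level, at 1.85 CPM. Its slope was -0.45 (SE 0.15, adjusted p = 0.0731, edgeR). Of the enzymes that activate vitamin D, the 25-hydroxylase Cyp2r1 was undecided, with 70 to 192 counts and a slope of 0.45 (SE 0.11). The 1-alpha-hydroxylase Cyp27b1 had 2 to 12 counts and was not tested.

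The 34 members under the filter had few counts, and 17 of them had no library with more than 5. No steroid hormone P450 passed the filter. Cyp11a1, which starts steroid synthesis by cleaving the cholesterol side chain, had 4 to 18 counts and Cyp17a1 5 to 41, while Star, which carries cholesterol into mitochondria in steroid-producing cells, had 1027 to 5596. The other listed markers of steroid-producing cells were low, with 66 to 126 counts of Nr5a1, 0 to 20 of Hsd3b1 and 0 to 2 of Insl3. Cyp21a1, the steroid 21-hydroxylase, had 0 to 9 counts, and Cyp19a1, which encodes aromatase, had 1 count in 1 library. Cyp26a1, a retinoic acid hydroxylase, had 3 to 79 counts with the most in DMSO replicate 5, and Cyp26c1 had 0 to 8. The others with 20 counts or more in all were Cyp2a22 (1 to 80), Cyp2b9 (2 to 24), Cyp2a4 (1 to 19), Cyp4a31 (0 to 28), Cyp4x1 (0 to 8), Cyp2b10 (0 to 19) and Cyp2c39 (0 to 11). A count of 0 allowed up to 3 counts, or 0.0597 to 0.0783 CPM depending on the library, and covers counting error only. Without strand information in the sources, counts of Cyp4x1 cannot be told from those of the antisense gene Cyp4x1os, which itself had 0 counts.

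The P450 genes listed here as differing between male and female mouse liver were divided in these libraries. These lists are short, and genes outside them were not compared for sex bias. The 4 genes listed as male-biased (Cyp2d9, Cyp4a12a, Cyp4a12b and Cyp7b1) all passed the filter and all followed Alb, with up to 4632 counts of Cyp2d9 in a library. Without DMSO replicate 5, Cyp4a12b and Cyp7b1 no longer passed as followers, and Cyp7b1 did not pass with the replicate block either. Of the 8 genes listed as female-biased (Cyp2a4, Cyp2b9, Cyp2b13, Cyp3a16, Cyp3a41a, Cyp3a41b, Cyp3a44 and Cyp17a1), none passed the filter, 2 had no count at all and no library had more than 41 counts of any. Summed over the list, the male-biased genes had 23.7 to 142 CPM per library and the female-biased genes 0.3 to 1.74. Both lists hold close paralogs, with 21.8% to 49.4% of words shared for Cyp2d9, Cyp4a12a and Cyp4a12b and 26.5%, 27.3% and 38% for Cyp3a44, Cyp2b13 and Cyp2a4, and how the counting treated such reads is not given in the sources used here.

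With FICZ, no P450 gene outside CYP1 was called different from DMSO. Of the 50 genes tested, 0 had an adjusted p of 0.05 or less (smallest 0.999, edgeR), where 0.0211% of all genes tested did. DESeq2, fitted to all 84 without edgeR's filter, and limma-voom also called 0. A member without an adjusted p in DESeq2 was taken as not called. No gene had groups that did not overlap, against 0.47% of all genes. At an unadjusted p of 0.05 or less, 24 P450 genes were lower with FICZ and 0 were higher, where 3.49% and 1.33% of all genes were, and all 24 were followers of Alb. With the replicate block in edgeR, the count was 1 of 50 (Cyp7b1, unadjusted p = 0.0461, adjusted p = 0.929), where 663 of all 14251 genes were called. The count of members was also 1 without DMSO replicate 5, 0 in limma-voom and 36 of 84 in DESeq2. For these settings the share over all genes is not given here. The 37 followers had a median log2 difference of -1.07, all below 0, where the median over all genes was 0.0105. Alb itself had a log2 difference of -1.09 (SE 0.45). The median was -0.449 without DMSO replicate 5 and -0.74 with the replicate block.

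Cyp2e1 had 233 ± 192 CPM with DMSO and 110 ± 17.1 with FICZ, a log2 difference of -1.09 (SE 0.44, unadjusted p = 0.032, adjusted p = 0.999, edgeR; p = 0.175, exact permutation test). Its SD with DMSO was set by the spread from 81.09 to 554.6 CPM, and FICZ was higher in 2 of 5 pairs of the same number. Cyp3a11 had a log2 difference of -1.16 (SE 0.45, unadjusted p = 0.0262, adjusted p = 0.999 in edgeR). The lowest unadjusted p was that of Cyp2c67, at 0.0143, with a log2 difference of -1.26 (SE 0.44), 81 to 521 counts with DMSO and 64 to 105 with FICZ, and 52.8% of its words shared with other genes. Summed over the 37 followers, levels were 832.7 ± 671.7 CPM with DMSO and 409.4 ± 55.39 with FICZ (p = 0.183, exact two-sided permutation test). Followers made up 65.6% to 90.2% of the counts of the 84 members in a library, and 410.7 to 464.9 of their counts were found per 1000 Alb counts in every library. The 37 were chosen by their slope on Alb in these same libraries, so a narrow ratio within a group is in part set by that choice. Alb itself had the same permutation p, so the p of this sum is not a separate test.

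**Figure D3:**
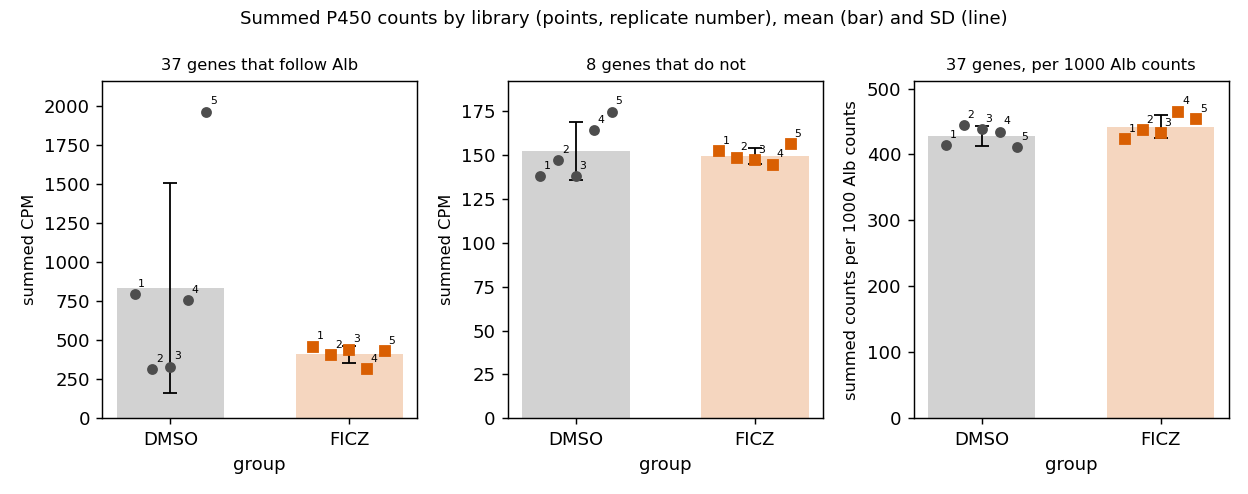
Summed CPM of the 37 P450 genes that follow Alb (left), of the 8 that do not (middle), and summed counts of the 37 per 1000 Alb counts (right), by library. Points carry replicate numbers, bars are means and lines SD (n = 5). DMSO replicate 5 is far above the rest at left, and all 10 libraries lie between 410.7 and 464.9 at right. Both sets of genes were chosen by their slope on Alb in these same libraries.

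With log2 Alb CPM as a covariate, the median log2 difference of the followers was 0.0173 (range -0.293 to 0.521), with 21 of 37 above 0. The followers were chosen by the Alb term of this same model in the same libraries, so this median is not a separate test of them. Cyp2e1 was at -0.0002 (SE 0.07) and Cyp3a11 at -0.05 (SE 0.06). No adjusted p reached 0.05, and 1 gene, Cyp3a59, had an unadjusted p of 0.0382 (0.52, SE 0.22), with 17 to 174 counts and 30% of its words shared. Whether FICZ altered Alb and the P450 genes along with it, or the libraries held unequal amounts of liver RNA, cannot be told apart in this design.

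The 8 genes that did not follow Alb had a median log2 difference of -0.00596 between FICZ and DMSO, with 4 above 0 and 4 below. Their sum was 152.3 ± 16.43 CPM with DMSO and 149.7 ± 4.57 with FICZ (p = 0.778, exact two-sided permutation test). The 8 were chosen in these same libraries for a low slope on Alb with a small error, which favours genes that vary little. The test of their sum therefore cannot show the absence of a FICZ effect. Cyp20a1 had a log2 difference of 0.01 (SE 0.08), Cyp2j6 of -0.02 (SE 0.10), Cyp4f16 of -0.07 (SE 0.08) and Cyp4f17 of -0.08 (SE 0.14). Cyp4f16 was lower with FICZ in 5 of 5 pairs of the same number, and with the replicate block its log2 difference was -0.07 (SE 0.06, adjusted p = 0.948, edgeR). The other genes had wider errors, with Cyp39a1 at -0.18 (SE 0.18), Cyp26b1 at 0.17 (SE 0.30), Cyp2u1 at 0.15 (SE 0.16) and Cyp46a1 at 0.16 (SE 0.21). For Cyp20a1, Cyp46a1 and Cyp4f16, which hold GCGTG within 250 bases of the start, no difference passed the test. Cyp2s1, which is known to be inducible through AHR in other cells, had 120, 125, 91, 192 and 242 counts with DMSO and 127, 119, 60, 167 and 165 with FICZ. Its log2 difference was -0.22 (SE 0.30), and its slope on Alb was undecided at 0.34 (SE 0.17). It overlaps the antisense gene Gm26707 in 260 exonic bases. Cyp4f13, also undecided, was lower with FICZ in 5 of 5 pairs (-0.29 with the block, SE 0.13, adjusted p = 0.929, edgeR).

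**Figure D4:**
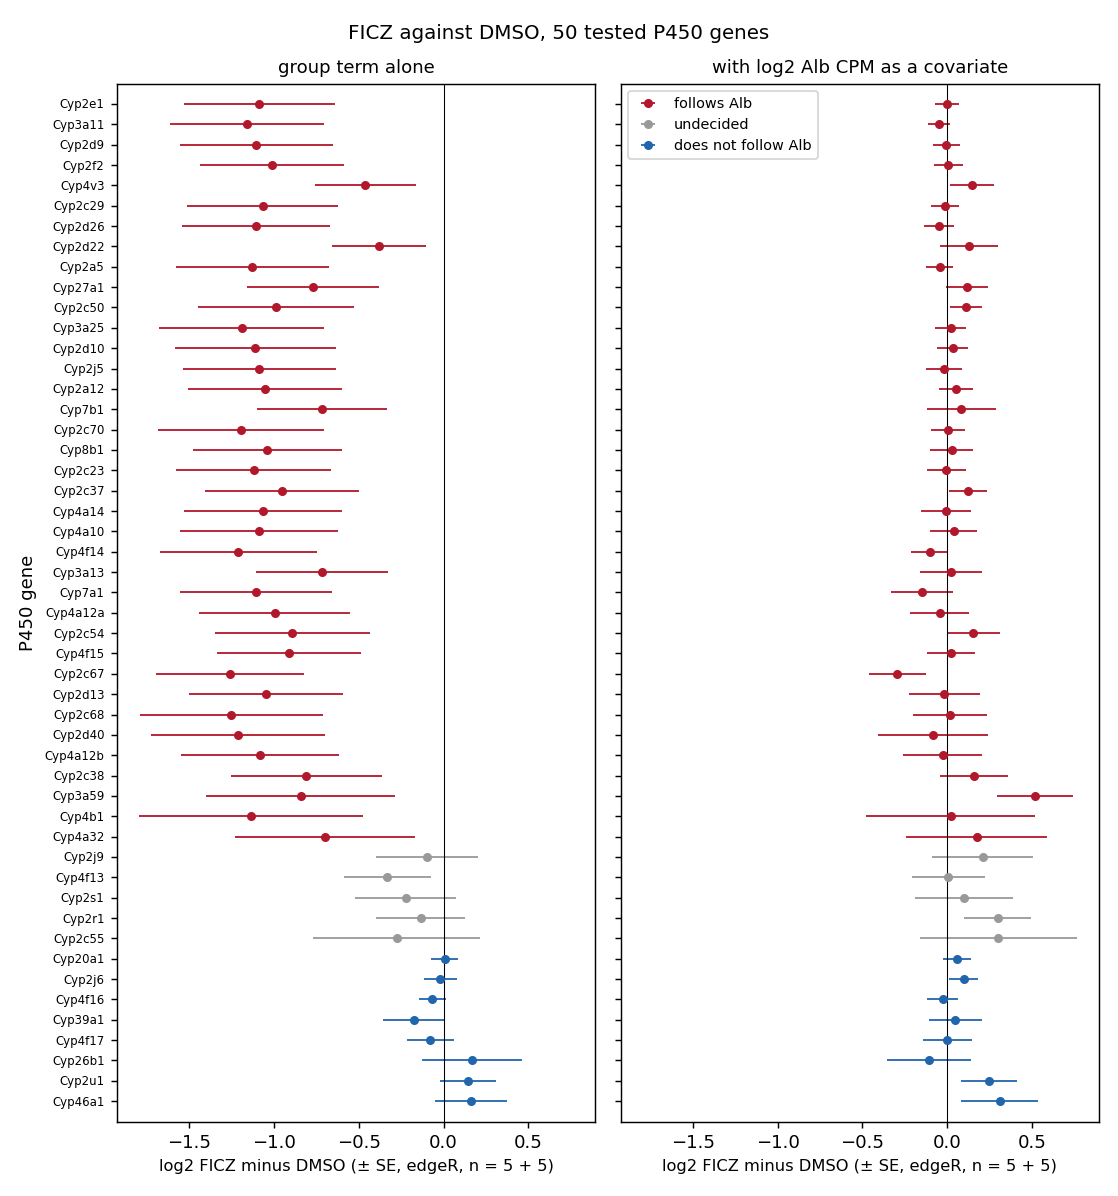
Log2 difference between FICZ and DMSO (x axis, point with SE, n = 5 + 5) of the 50 tested P450 genes (y axis), from the group term alone (left) and with log2 Alb CPM as a covariate (right), with classes by colour. The genes that follow Alb lie at a median of -1.07 at left and 0.0173 at right, and the 8 that do not follow Alb run from -0.176 to 0.167 at left and from -0.107 to 0.31 at right. The classes were chosen by the Alb term of the model at right in these same libraries.

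Proteins that serve P450 enzymes were compared in the same way. All 8 redox partners passed the filter. None followed Alb, and none had a p at or under 0.05 before adjustment in edgeR. They were abundant, with summed levels of 1840 to 2050 CPM per library. Cyb5r3 and Cyb5b, which encode cytochrome b5 reductase and a mitochondrial cytochrome b5, and Pgrmc1, which encodes a haem-binding partner, had log2 differences of -0.12 (SE 0.07), 0.06 (SE 0.07) and 0.09 (SE 0.14). For Cyb5r3 the exact two-sided permutation test gave p = 0.0397, not adjusted. Of 3 enzymes of the P450 family whose symbols fall outside the rule, none was a follower of Alb and the groups did not differ at p of 0.05 even before adjustment in edgeR. Cyp51, the lanosterol demethylase of cholesterol synthesis, had 11035 to 18753 counts and Ptgis, prostacyclin synthase, 5136 to 8391, with log2 differences of 0.07 (SE 0.13) and -0.08 (SE 0.14), while Tbxas1, thromboxane synthase, had 3 to 18 counts and was not tested.

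The nuclear receptors that control P450 genes also held followers of Alb and others. Of 18 listed, 17 passed the filter and 6 followed Alb. These were Hnf4a (slope 1.03, SE 0.06), the xenobiotic receptors Nr1i3 (CAR; 0.92, SE 0.11) and Nr1i2 (PXR; 0.84, SE 0.11), Ppara (0.79, SE 0.07), Nr5a2 (1.02, SE 0.14) and Nr0b2 (0.87, SE 0.15), which act in liver. All 6 were lower with FICZ at an unadjusted edgeR p of 0.05 or less, where 3.49% of all genes were, while exact two-sided permutation tests gave p from 0.0476 (Nr0b2) to 0.175 (Nr5a2). So was Nr1h3 (LXR-alpha), which did not follow Alb (slope 0.11, SE 0.09). Nr1h3 had 16.8 ± 2.93 CPM with DMSO and 13.3 ± 1.83 with FICZ, a log2 difference of -0.33 (SE 0.14, unadjusted p = 0.0327, adjusted p = 0.999 in edgeR; p = 0.0635, exact permutation test). None of the 17 passed the adjusted threshold. The most abundant, Rxra, Nr1h2 (LXR-beta) and Pparg, had slopes of 0.01, 0.03 and 0.00 (SE 0.05, 0.05 and 0.06).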

How the data were processed

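Bulk RNA sequencing of cultured ASPCs was analysed, with 5 libraries each of DMSO and FICZ. According to the methods and the submitters' processing notes, the authors aligned reads with STAR 2.7.7 to mm10 and deposited, for each gene symbol, a raw count that was not normalized. The counting program, annotation, strand and multi-mapping settings are not given in the sources used here. The authors' other experiments were not analysed.

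Counts were tested with edgeR 4.0.16 (R 4.3.3) by the quasi-likelihood F-test with TMM scaling, robust dispersions and the filter by expression, with Benjamini-Hochberg adjustment across every gene that passed the filter. DESeq2 1.42.0 and limma-voom (limma 3.58.1) were alternatives. The SE of a log2 value is the value divided by the square root of its F statistic. Single genes and sums were compared over the 252 arrangements of 5 against 5, where the smallest p is 0.00794, on log2 CPM with a prior count of 2. P-values measure the spread between libraries, which may be technical, since separate cultures or animals are not stated. All 20 pairs of libraries within a group differed by more than counting noise. Scripts were tested on simulated data.

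The members and gene lists were chosen with earlier results of these data known. Named were the 30 tested members of highest mean CPM, those with an unadjusted p of 0.05 or less between groups, untested members with 20 counts or more in all and, of the redox, nuclear receptor and other P450 lists, the 3 of highest CPM and those at that p. Other genes, Cyp26b1, Cyp2u1, Cyp46a1, Cyp2s1, Cyp2r1, Cyp2c55, Cyp3a13, Cyp3a59, Cyp2c38, Cyp4b1, Cyp4a32, Cyp4f15, Cyp2c54, Cyp19a1, Cyp2b13, Cyp3a16, Cyp3a44, Pdgfra, Clec4f and Star among them, were named after their values were seen. Same-numbered libraries deviated from their group means together, with correlations across genes of 0.154 to 0.317 in all 5 pairs, so the replicate number was also fitted as a block. What the number marks is not stated. Of the 84 members, 83 matched a GENCODE gene model (GRCm38, the assembly of mm10) by symbol, which gave coordinates, exon lengths and shared 50-base words, and 63 a RefSeq start site. Cyp2d13 had no match.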

Additional observations from a re-analysis of the deposited data

Results flagged for a closer look

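Within groups of 5 libraries, the gap between the most extreme CPM and its neighbour, divided by the group's range, was above 0.71 in 14 of the 74 groups formed by the 37 named and tested P450 genes. By chance about 3.7 would be. DMSO replicate 5 was the highest library in 8 of them, with ratios of 0.733 for Cyp2d9, 0.725 for Cyp2c29, 0.719 for Cyp2d26, 0.721 for Cyp2c50, 0.764 for Cyp2d10, 0.77 for Cyp2c70, 0.761 for Cyp4f13 and 0.729 for Cyp4a12a. All but Cyp4f13, which was undecided, followed Alb, and Alb was highest in the same library. FICZ replicate 4, which had the least Alb, was the lowest of its group in 5, with ratios of 0.796 for Cyp2d9, 0.77 for Cyp2f2, 0.723 for Cyp2a5, 0.815 for Cyp3a25 and 0.833 for Cyp2j5. FICZ replicate 5 was the highest of its group for Cyp7b1, with a ratio of 0.727. Genes that share a library's Alb level are not independent of each other.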

How the results depend on the processing

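No P450 gene was called between FICZ and DMSO in the edgeR fit or in any of 20 alternatives (other scalings, a filter of 10 counts in sum, DESeq2, limma-voom, the replicate block, Alb as a covariate, and each library left out in turn). The smallest adjusted p in these was 0.392, without DMSO replicate 2. Unadjusted calls numbered 24 of 50 with all libraries, 1 with the replicate block, 13 of 84 in DESeq2 with the block, 36 of 84 without it, 0 in limma-voom and 1 with Alb as a covariate. They numbered 15 without DMSO replicate 1, 35 without DMSO replicate 2, 34 without DMSO replicate 3, 19 without DMSO replicate 4, 1 without DMSO replicate 5, 16 without FICZ replicate 1, 8 without FICZ replicate 2, 9 without FICZ replicate 3, 2 without FICZ replicate 4 and 9 without FICZ replicate 5, and 0 without both libraries numbered 5 in the blocked fit, an alternative chosen after seeing the data, as was the straight line of CPM on Alb CPM. Before adjustment, the main edgeR fit put 497 of all 14251 genes lower with FICZ and 190 higher at the 0.05 threshold. The replicate block gave 663 such genes in all, and Alb as a covariate gave 302. For the other settings no figure over all genes is given here, so their counts have no background. The 24 calls with all libraries were all of followers of Alb, which are not independent of each other. After adjustment, DESeq2 called 16 of all genes and edgeR 3, and the block gave 26 and 8. The cause of these differences was not tested.

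Followers of Alb numbered 33 with the replicate block (32 of the 37, with Cyp2r1 gained), 42 with the filter of 10 counts in sum, 35 at a slope of at least 0.75 and 28 to 39 with 1 library left out, the lowest without DMSO replicate 5. Of 629 slopes of named genes under alternatives, 618 kept their call and 11 fell below a threshold, all of Cyp4v3, Cyp2d22, Cyp7b1, Cyp2d40 and Cyp4a12b. Of 740 log2 differences of named genes, none of which was ever called, 48 changed sign, 19 of them with Alb as a covariate and 16 with Alb and the block, and none of the 48 was larger than 0.2112 in size. Counting depth limits the 34 untested members, and the range of Alb rests largely on 1 library.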
